A study of Mus musculus with 23 samples.

Results

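The genes described here are 10 mouse genes of the integrated stress response, taken by name from a list and found in every deposited expression table: Atf4, Atf5, Ddit3, Trib3, Chac1, Phgdh, Psat1, Asns, Pck2 and Sesn2. They are 10 of the 53715 genes listed, each has 1 identifier of its own name, except Ddit3, whose second identifier (at most 0.928 TPM) was left out, and all 10 passed the filter on low values in every comparison of cultured cells. The list is a choice of known pathway genes by name, made with earlier results of these data known. Expression is given in TPM, a relative transcript abundance that is corrected for transcript length and scaled to the same total in each library.

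In the integrated stress response, kinases that sense amino acid shortage, unfolded proteins, viral RNA or low heme phosphorylate the translation factor eIF2alpha. General translation then slows while the Atf4 mRNA is translated more, so Atf4 is controlled largely at translation and its mRNA level is only part of its output. The Atf4 protein, a bZIP transcription factor that pairs with C/EBP proteins, switches on genes for amino acid synthesis and import, tRNA charging and redox balance, and with longer stress it also acts through Ddit3, known as CHOP.

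The study measured RNA in mouse embryonic stem (ES) cells, in induced pluripotent stem (iPS) cells reprogrammed from fibroblasts, and in embryos, to ask what the RNA-binding proteins Lin28a and Lin28b do there. ES groups were Lin28a-null cells, cells labelled Lin28b-null, ilet7 cells given doxycycline for 3 days to induce the microRNA let-7, untreated ilet7 cells, and untreated wild-type cells. iPS groups were Lin28a/b double knockout and wild-type cells, and the embryo groups, of strain C57BL/6J, were a pool injected with siRNA against Lin28a and a control pool. All cultured cells grew on gelatin with feeder fibroblasts in LIF/2i medium, which holds the naive state of pluripotency.

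There were 3 libraries per cell group (15 ES and 6 iPS) and 1 per embryo group. Nothing in the labels says that replicates were separate cultures or clones, so p-values measure only the spread between these libraries, and each knockout is compared with a wild-type line that may differ in other ways. The sources do not say which knockout line, clone or parent each library came from. Lin28a was lower but not absent in Lin28a-null libraries (14.6 to 20.96 TPM, against 31.5 to 61.2 TPM in wild-type ES libraries), in double knockout libraries (9.51 to 11.6 TPM, against 16.0 to 36.2 TPM in wild-type iPS libraries) and in the siLin28 pool (3.03 TPM, against 15.9 TPM in the control pool). Lin28b mRNA went against its label: it lay between 12.55 and 13.8 TPM in libraries labelled Lin28b-null, while wild-type ES libraries had 3.635 to 5.18 TPM, and it was also higher in double knockout than in wild-type iPS libraries (10.3 to 11.6 against 2.17 to 4.14 TPM). Doxycycline-treated ilet7 libraries had less Lin28a mRNA than the Lin28a-null ones (6.26 to 7.33 TPM, against 20.4 to 24.9 TPM in untreated ilet7 libraries, a log2 change of −1.61, limma adjusted p = 5.5e-04). A knockout can leave an mRNA in place, so these libraries are named by their label throughout. Summed pluripotency markers lay between 6307 and 8187 TPM in ES, 4819 and 6055 TPM in iPS and 4333 and 5225 TPM in embryo libraries. Fibroblast markers, which feeders would carry, were present in all cell libraries with none of 15 at 0, and their sums are given beside the comparisons they move with. In bulk RNA, fewer cells that express a gene and less RNA per cell cannot be told apart.

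The DNA word most closely tied to Atf4 is the composite C/EBP-ATF element, searched here as TGATGNAA on both strands of the RefSeq promoter windows of build GRCm38.p6 (250 bases before to 50 after each annotated start). All 10 genes had a window, Atf5 and Psat1 a pair each, and 4 of the 12 windows (33.3%) held the word, against 3.97% of all 32851 windows. The genes were Trib3, Chac1, Asns and Pck2, and none of the windows of Atf4, Atf5, Ddit3, Phgdh, Psat1 and Sesn2 held it. Of those, Atf4, Phgdh, Psat1 and Sesn2 fell in Lin28a-null cells without the word, and Atf3, whose window holds it, did not pass the threshold there. The sites are shown because they are the letters this search found, and each is printed with the word in capitals on the strand where it reads TGATGNAA:
Chac1, chr2:119351038-119351067, minus strand: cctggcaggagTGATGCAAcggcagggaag
Trib3, chr2:152344028-152344057, plus strand: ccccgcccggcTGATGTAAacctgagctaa
Asns, chr6:7693214-7693243, minus strand: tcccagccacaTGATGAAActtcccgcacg
Pck2, chr14:55540152-55540181, minus strand: ctgtaagatacTGATGTAActttgaaggct
Nupr1, chr7:126625562-126625591, plus strand: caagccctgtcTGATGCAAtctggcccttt
Jdp2, chr12:85599372-85599401, plus strand: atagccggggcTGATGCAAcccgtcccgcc
Slc1a4, chr11:20332699-20332728, plus strand: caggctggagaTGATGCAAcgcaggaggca
Gars, chr6:55037960-55037989, minus strand: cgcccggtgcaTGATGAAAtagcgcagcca
Iars, chr13:49682126-49682155, minus strand: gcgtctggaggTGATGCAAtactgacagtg
Tars, chr15:11399655-11399684, plus strand: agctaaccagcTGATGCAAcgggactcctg
Yars, chr4:129189895-129189924, plus strand: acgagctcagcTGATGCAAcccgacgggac

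The word began 193 bases before the RefSeq start in Chac1, 103 before in Pck2, 23 before in Asns and 14 after it in Trib3. The lines from Nupr1 onward are a selection of sites of wider pathway genes described further on: bZIP factors, an amino acid transporter and tRNA synthetases. Sites in Atf3, Slc7a11, Vldlr, Pycr1, Got1, Fgf21, Herpud1 and the synthetase gene Aars are not printed. Of 12 tRNA synthetase genes linked to Atf4, 7 matched a window and 5 of those (71.4%) held TGATGNAA. Of 8 other cytosolic synthetase genes 5 matched a window, and none held it. The first list was made of known Atf4 targets, so this difference is not separate evidence of a link. None of the 10 genes had the ER stress response element (0.119% of all windows) or the cAMP element TGACGTCA (1.79%) in these windows. A match describes letters only, not binding.

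The levels spanned a wide range. In wild-type ES cells, Asns, which makes asparagine, was the most abundant at 1034 ± 40.6 TPM, followed by Psat1 (530 ± 37.3), Atf4 (502 ± 7.39), Phgdh (340 ± 11.3) and Sesn2 (258 ± 8.58). Atf5 (146 ± 36.2), Trib3 (128 ± 30.8), Ddit3 (110 ± 11.1), Chac1 (87.6 ± 4.99) and Pck2 (74.4 ± 6.18) were lower (TPM, mean ± SD, n = 3). Of the 5 ES groups, the wild-type cells had the highest mean for 9 of the 10 genes, all but Ddit3, where 12.2% of 16020 genes had their highest mean there. For Trib3, Chac1, Phgdh and Sesn2, the 12 other ES libraries all lay below the 3 wild-type libraries, as did 2.56% of all genes. The comparisons with wild-type ES cells share these 3 libraries, so they are not separate evidence of a direction.

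**Figure D1:**
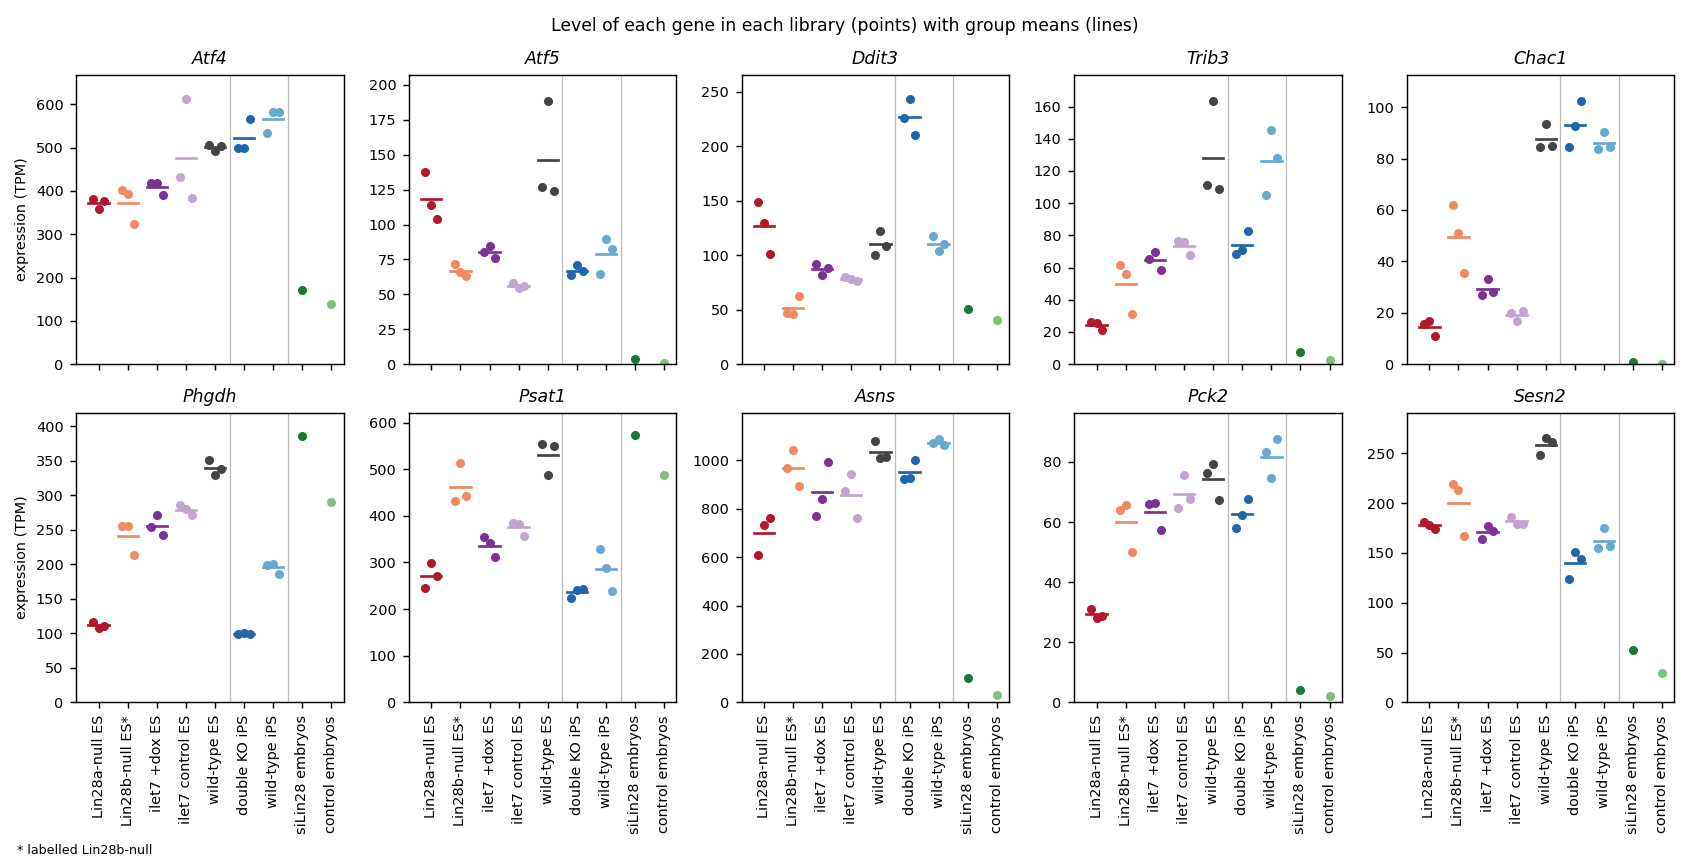
TPM (vertical axis, starting at 0) of each gene in each of the 23 libraries, by group along the horizontal axis, with points for libraries and lines for means of 3. Wild-type ES libraries are highest of the ES libraries for Trib3, Chac1, Phgdh and Sesn2. Of the ES groups Lin28a-null cells have the lowest mean for Trib3, Chac1, Phgdh, Psat1, Asns and Pck2. Ddit3 is highest in double knockout iPS cells (211 to 243 TPM).

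Most of the pathway was lower in the cells labelled Lin28a-null. In Lin28a-null against wild-type ES cells 8 of the 10 genes fell and none rose, where 17.8% of 16060 genes fell and 20.4% rose (limma, adjusted p under 0.05). The median log2 change of the 10 genes was −0.76, against 0.02 over all genes tested. Chac1, Trib3, Phgdh and Pck2 fell at least 2-fold, which 4.34% of genes did, and Ddit3 and Atf5 did not pass the threshold. All 8 calls were made under each of 15 other settings, which included leaving out each library in turn.

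Among the transcription factors, Atf4 mRNA had 382, 359 and 377 TPM in Lin28a-null libraries, against 507, 493 and 505 TPM in wild-type libraries. The groups did not overlap, and the change was modest, −0.43 on the log2 scale (standard error 0.053, limma adjusted p = 0.0013). Atf5, a relative of Atf4 that directs the mitochondrial stress response, had 138, 114 and 104 TPM in Lin28a-null and 127, 188 and 124 TPM in wild-type libraries, with overlapping groups. Ddit3, the pro-apoptotic partner of C/EBP proteins, had 149, 130 and 101 TPM in Lin28a-null and 100.5, 122 and 108 TPM in wild-type libraries, so that the groups overlapped and 1 Lin28a-null library stood well above all others.

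Trib3 and Chac1 moved most. Trib3, a pseudokinase that binds Atf4 and Ddit3 and restrains them, had 26.2, 25.3 and 21.3 TPM in Lin28a-null libraries, against 112, 163 and 109 TPM in wild-type libraries. All Lin28a-null libraries lay far below the lowest wild-type library, and the log2 change was −2.33 (standard error 0.17, adjusted p = 1.7e-04). Chac1, which breaks down glutathione, had 15.8, 16.7 and 10.96 TPM in Lin28a-null libraries, against 84.6, 93.3 and 84.8 TPM in wild-type libraries, the largest change of the 10 genes at −2.54 (standard error 0.16, adjusted p = 9.6e-05).

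The enzymes of serine synthesis fell together. Phgdh, which commits the glycolytic intermediate 3-phosphoglycerate to serine, had 116, 108 and 111 TPM in Lin28a-null libraries, against 352, 329 and 339 TPM in wild-type libraries. These groups were tight and far apart, with a log2 change of −1.60 (standard error 0.059, adjusted p = 1.1e-05). Psat1, the transaminase of the next step, had 246, 298 and 272 TPM in Lin28a-null libraries, against 553, 487 and 549 TPM in wild-type libraries, a log2 change of −0.96 (adjusted p = 4.5e-04). Psph, which completes the pathway and is not among the 10, also fell, by 1.18 on the log2 scale (adjusted p = 0.0011).

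The other metabolic genes fell by different amounts. Pck2, the mitochondrial enzyme that makes phosphoenolpyruvate, had 31.1, 28.0 and 28.8 TPM in Lin28a-null libraries, against 76.3, 79.3 and 67.4 TPM in wild-type libraries (log2 change −1.31, adjusted p = 1.5e-04). Sesn2, a leucine sensor that restrains mTORC1, had 181, 178 and 174 TPM in Lin28a-null libraries, against 249, 265 and 262 TPM in wild-type libraries, with the groups apart (−0.54, adjusted p = 6.7e-04). Asns had 611, 731 and 762 TPM in Lin28a-null libraries, against 1081, 1008 and 1013 TPM in wild-type libraries (−0.57, adjusted p = 0.0035), the smallest proportional change among the enzymes that fell.

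The wider Atf4 program moved the same way in Lin28a-null cells, where 17.8% of all 16060 genes fell and 20.4% rose. Of 12 cytosolic tRNA synthetases known as Atf4 targets, 10 fell and none rose, with a median log2 change of −0.44, and Sars (−0.80) and Mars (−0.65) were the largest. Of 8 cytosolic synthetases not placed in that list, 1 fell, and their median was −0.02. The amino acid transporters fell in 7 of 9 cases, among them Slc1a4, a carrier of serine and other neutral amino acids (26.0 ± 1.39 TPM in Lin28a-null against 52.2 ± 7.87 TPM in wild-type cells, mean ± SD, n = 3), and Slc6a9, a glycine carrier (−1.03). In serine, glycine and folate metabolism 5 of 8 enzymes fell, Gldc of the glycine cleavage system by 1.38 on the log2 scale, and of 14 other targets 8 fell and 1 rose, led by the secreted proteins Stc2 (−1.80) and Gdf15 (−1.78). Of 5 bZIP partners and cofactors tested, 3 fell, Nupr1 by 1.51 and Jdp2 by 1.15 on the log2 scale.

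The sensors above Atf4 and the neighbouring ER branch did not share this direction. The list of eIF2alpha kinases, phosphatase subunits and eIF2alpha itself had a median of 0.25, with 2 of 7 genes risen and 1 fallen; Eif2ak2, the kinase that responds to double-stranded RNA, rose to 109 ± 6.497 TPM in Lin28a-null cells, against 67.9 ± 16.8 TPM in wild-type cells (mean ± SD, n = 3, adjusted p = 0.0134, or 0.0518 without Lin28a-null replicate 1, where no gene of the list passed). Of 14 genes of the ER unfolded protein response 4 rose and 1 fell, with a median of 0.01. Beside both lists, 20.4% of all genes tested rose and 17.8% fell. The chaperone Hspa5 rose (0.52, adjusted p = 0.00155) and Herpud1, which serves ER-associated degradation, fell (−0.93, adjusted p = 7.6e-04); without Lin28a-null replicate 1, 2 or 3, in turn, 2 genes rose.

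**Figure D2:**
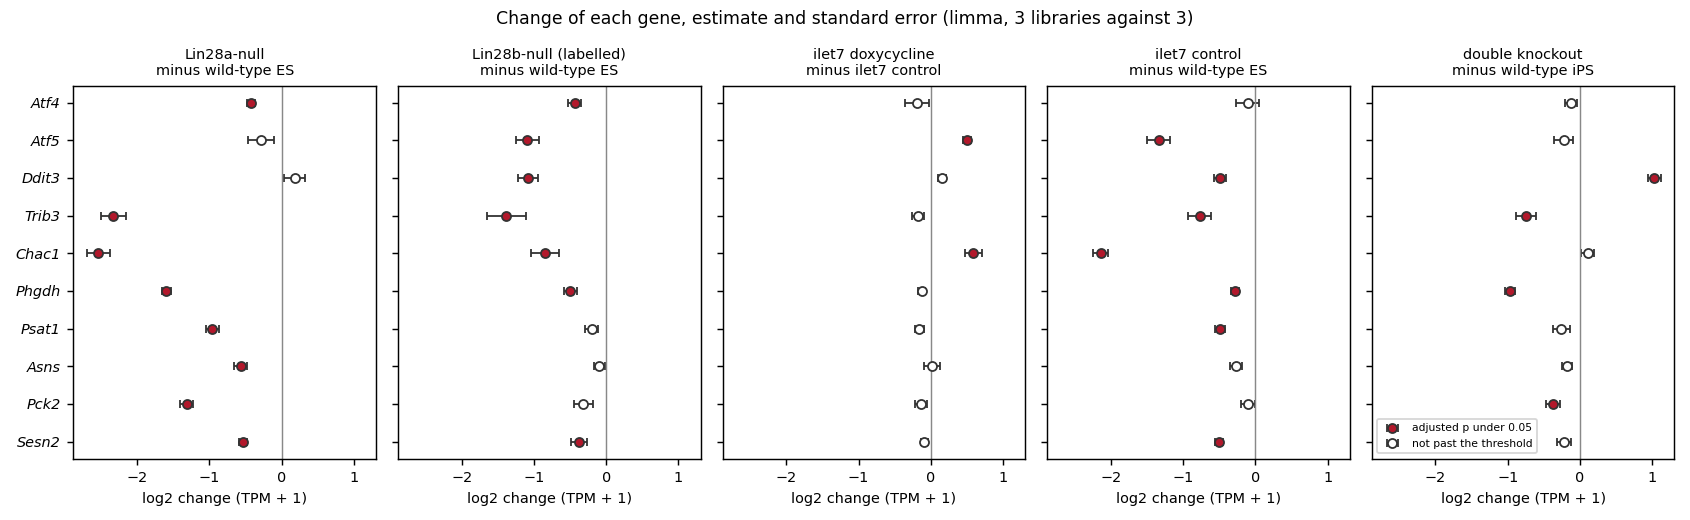
Log2 change of TPM + 1 (horizontal axis, estimate with standard error bars) of the 10 genes in 5 comparisons of 3 libraries against 3, with filled points at an adjusted p under 0.05 by limma. In Lin28a-null cells 8 points are filled and lie left of 0. After doxycycline the filled points are Atf5 (0.50) and Chac1 (0.59), both right of 0. In double knockout iPS cells Ddit3 (1.03) is the only filled point right of 0.

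The fibroblast markers moved with this comparison. Their sum lay between 4069 and 5447 TPM in Lin28a-null libraries, against 1626 to 3119 TPM in wild-type libraries, and 14 of the 15 rose. Summed pluripotency markers lay between 6307 and 6969 TPM in Lin28a-null libraries, against 7512 to 7633 TPM in wild-type libraries, with 2 of 8 fallen and 1 risen. The part of either in the fall of the stress genes was not tested. In libraries labelled Lin28b-null the same sum lay between 1250 and 2056 TPM, and 1 fibroblast marker fell and none rose.

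In the cells labelled Lin28b-null 7 of the 10 genes fell relative to wild-type ES cells and none rose, where 15.1% of 15526 genes fell and 13.4% rose. The median log2 change was −0.46, against −0.01 over all genes. Atf5, Ddit3 and Trib3 fell at least 2-fold (5.6% of genes did), and Psat1, Asns and Pck2 did not pass the threshold. Here Trib3 and the downstream transcription factors moved most. Ddit3 had 47.0, 46.3 and 62.2 TPM in libraries labelled Lin28b-null, against 100.5, 122 and 108 TPM in wild-type libraries, with the groups apart (−1.08, adjusted p = 0.00157). Atf5 had 71.7, 65.9 and 63.1 TPM in libraries labelled Lin28b-null, against 127, 188 and 124 TPM in wild-type libraries (−1.09, adjusted p = 0.00312). Atf4 changed by −0.43 (adjusted p = 0.0115), with 401, 392 and 324 TPM in libraries labelled Lin28b-null.

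Trib3 had 61.4, 56.3 and 31.1 TPM and Chac1 61.95, 51.0 and 35.4 TPM in libraries labelled Lin28b-null. For both genes the third of these libraries was the lowest, though all 3 lay below every wild-type library (Trib3 −1.38, adjusted p = 0.00935; Chac1 −0.85, adjusted p = 0.0152). Phgdh had 255, 255 and 214 TPM there (−0.50, adjusted p = 0.0057), all below the wild-type libraries. Sesn2 fell by 0.38 on the log2 scale (adjusted p = 0.0399), and this call was lost without Lin28b-null replicate 2 or any 1 of the wild-type libraries, and also without the filter on low values, after median-of-ratios scaling and without the variance trend.

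Around these genes, 10 of 14 other Atf4 targets fell and none rose, among them Stc2 (−1.69), and Mthfd2, a folate enzyme of mitochondria, fell by 0.62 on the log2 scale while Shmt1, the cytosolic enzyme that converts serine to glycine, rose (0.90). Of the 9 transporters 5 fell, with Slc1a4 at −1.08 and Slc6a9 at −1.07. Over all genes tested, 15.1% fell and 13.4% rose. Of the 12 Atf4-linked synthetases 6 fell, with a median of −0.23. That count was 3 without Lin28b-null replicate 1, 4 without Lin28b-null replicate 3 or wild-type replicate 2, and 2 without wild-type replicate 3. Cebpg, a bZIP partner of Atf4, fell by 0.96 and Ppp1r15b, a subunit that recruits the eIF2alpha phosphatase, fell by 0.64 on the log2 scale.

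Set directly against each other, the Lin28a-null libraries and those labelled Lin28b-null separated the pathway into groups. In Lin28a-null relative to libraries labelled Lin28b-null, Chac1 (−1.69), Phgdh (−1.10), Pck2 (−0.997), Trib3 (−0.95), Psat1 (−0.76) and Asns (−0.47) fell, where 21.1% of 15974 genes fell, and Ddit3 (1.27) and Atf5 (0.81) rose, where 25.8% did. After quantile normalization 3528 genes rose and 4340 fell, against 4115 and 3369 without it, and the same 8 genes were past the threshold. The metabolic enzymes, Trib3 and Chac1 were thus lower and the downstream transcription factors higher. Atf4 itself did not pass the threshold (0.01, adjusted p = 0.95, and −0.04 after median-of-ratios scaling) and neither did Sesn2 (−0.16). Trib3 (adjusted p = 0.019) lost its call without Lin28a-null replicate 3 or Lin28b-null replicate 1 or 2, and Sesn2 was past it without Lin28b-null replicate 3 (adjusted p = 0.0042). All 15 fibroblast markers also rose in this comparison, and their part in it was not tested.

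The order of the 5 ES groups therefore differed from gene to gene. For Phgdh the wild-type mean was followed by untreated ilet7 (279 ± 6.98 TPM), doxycycline-treated ilet7 (256 ± 14.6 TPM) and Lin28b-null-labelled cells (241 ± 23.9 TPM), with the last pair overlapping, and then, well apart, by Lin28a-null cells (112 ± 4.10 TPM). For Pck2 the wild-type, ilet7 and Lin28b-null-labelled groups each overlapped the next, and only Lin28a-null cells (29.3 ± 1.64 TPM) stood apart. For Chac1 every group was apart from its neighbour, and both ilet7 groups (29.4 ± 3.21 TPM with doxycycline, 19.2 ± 2.17 TPM without) were nearer to Lin28a-null (14.5 ± 3.08 TPM) than to wild-type cells. Errors are SD with n = 3.

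Few of these genes passed the threshold when let-7 was induced. In ilet7 cells with doxycycline, against untreated ilet7 cells, 2 of the 10 genes rose and none fell, where 13.3% of 15884 genes (2118) rose and 5.68% (903) fell, a split that became 1596 risen and 1537 fallen after median-of-ratios scaling. The median log2 change of the 10 genes was −0.11, against 0.06 over all genes (−0.03 for the 10 without untreated ilet7 replicate 2 and −0.18 after median-of-ratios scaling). Atf5 had 80.0, 84.3 and 76.1 TPM with doxycycline, against 58.1, 54.7 and 55.7 TPM without (0.50, standard error 0.058, adjusted p = 0.00291). Chac1 had 26.9, 33.0 and 28.2 TPM with doxycycline, against 20.0, 16.7 and 20.8 TPM without (0.59, adjusted p = 0.0151), and this call was lost when all 15 ES libraries were fitted together (adjusted p = 0.0553). Both groups of 3 were apart for each gene.

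The serine enzymes of the list did not pass the threshold after doxycycline: Phgdh had 254, 271 and 243 TPM, against 286, 280 and 272 TPM without, and Psat1 355, 341 and 311 TPM, against 385, 382 and 358 TPM. The libraries were apart in both cases, with log2 changes of −0.13 and −0.16 (adjusted p = 0.135 and 0.108), and that of Psat1 passed the threshold after median-of-ratios scaling (adjusted p = 0.0498). Gldc, further along in glycine metabolism, fell by 0.67 on the log2 scale (79.8 ± 2.98 TPM with doxycycline, 128 ± 3.35 TPM without, mean ± SD, n = 3), and of the 8 enzymes Mthfd1l and Mthfd2 also fell, though Gldc was the 1 that did when the 15 ES libraries were fitted together. Atf3, a stress-induced bZIP factor, rose to 35.3 ± 3.999 TPM with doxycycline, against 19.3 ± 1.20 TPM without (0.83, adjusted p = 0.00303), and the arginine transporter Slc7a3 rose (0.58). In the same lists Jdp2 (−0.29, adjusted p = 0.0486) and Slc1a4 (−0.23, adjusted p = 0.026) fell, calls that were lost without any 1 of the libraries for Jdp2 and without any 1 except untreated ilet7 replicate 1 for Slc1a4. Of 13 other targets tested, Sqstm1 (0.30) rose and Got1 (−0.35) and Ero1l (−0.37) fell, the last not without doxycycline-treated replicate 1 or 2 or untreated ilet7 replicate 2 or 3. Of the 12 Atf4-linked synthetases only Gars fell (−0.30), and no gene of the ER response passed the threshold. In the eIF2alpha list 3 of 7 genes rose and 0 fell: Eif2ak2 (0.48, adjusted p = 0.0066), Eif2ak4 (0.24) and Ppp1r15b (0.23). That count was 1 to 2 with a library left out and 0 at fewest under the other settings. Over all genes tested, 13.3% rose in the main fit. Fibroblast markers summed to between 1498 and 1749 TPM with doxycycline, against 1226 to 1458 TPM without, and 7 of 14 tested rose (3 without doxycycline-treated replicate 1, 4 without doxycycline-treated replicate 3, and 0 when the 15 ES libraries were fitted together), and their part in the result was not tested.

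The doxycycline effect was then set against the Lin28a-null effect, as the difference between both log2 changes in one fit of the 4 groups. That difference was positive and past the threshold for 8 of the 10 genes, as for 16.2% of 16085 genes. In the same test 10 of 15 fibroblast markers had a negative difference past the threshold (6 without Lin28a-null replicate 1), and Lin28a itself did not pass it (−0.43, adjusted p = 0.35); the part of the markers in the result was not tested. It was 3.12 for Chac1 (standard error 0.20, adjusted p = 2.3e-06), 2.15 for Trib3 and 1.47 for Phgdh (standard error 0.075, adjusted p = 2.4e-07), and did not pass the threshold for Atf4 and Ddit3. All 8 were past the threshold in every other setting run.

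The untreated ilet7 line shows how far the genes differed from wild type in another ES line that carries no labelled knockout. It was not matched to wild type in Lin28a mRNA, which had 20.4 to 24.9 TPM there, against 31.5 to 61.2 TPM. These libraries were apart, though the change did not pass the threshold (−0.76, adjusted p = 0.080). Against wild-type ES cells 7 of the 10 genes fell and none rose, where 8.46% of 15693 genes fell and 9.18% rose, with a median log2 change of −0.49, against 0.02 over all genes. Chac1 had 20.0, 16.7 and 20.8 TPM in untreated ilet7 libraries, against 84.6, 93.3 and 84.8 TPM in wild-type libraries (−2.14, adjusted p = 6.6e-05). Atf5 (−1.34), Trib3 (−0.77), Sesn2 (−0.51), Psat1 (−0.50), Ddit3 (−0.49) and Phgdh (−0.28) also fell, and Asns (−0.27), Pck2 (−0.10) and Atf4 (−0.10) did not pass the threshold. The Trib3 call (adjusted p = 0.0192) was lost without any 1 of the ilet7 libraries, and that of Phgdh (adjusted p = 0.0157) without untreated ilet7 replicate 2 or 3 or wild-type replicate 3, or without the variance trend. Beside these values, the changes in Lin28a-null cells were −2.54 for Chac1, −0.54 for Sesn2 and −1.31 for Pck2. Line and genotype cannot be told apart in these data. Fibroblast markers summed to between 1226 and 1458 TPM in untreated ilet7 libraries, against 1626 to 3119 TPM in wild-type libraries, and 6 of 14 tested fell (0 without any 1 of the untreated ilet7 libraries or without wild-type replicate 3, 9 without wild-type replicate 2); their part in these differences was not tested.

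In iPS cells, the libraries labelled Lin28a/b double knockout were measured against their own wild-type libraries. There 3 of the 10 genes fell, where 7.51% of 17557 genes did, and 1 rose, where 8.77% did, and the median was −0.22, against 0.04 over all genes. Phgdh had 99.4, 100.4 and 98.4 TPM in double knockout libraries, against 199, 201 and 187 TPM in wild-type iPS libraries, tight groups nearly 2-fold apart (−0.97, standard error 0.069, adjusted p = 2.6e-04). Trib3 had 68.5, 70.9 and 82.9 TPM in double knockout libraries, against 105, 146 and 128 TPM in wild-type iPS libraries (−0.75, adjusted p = 0.0121). Pck2 had 58.1, 62.4 and 67.7 TPM, against 83.4, 74.5 and 87.5 TPM (−0.38, adjusted p = 0.0414), and this call was lost without any 1 of the double knockout libraries or without wild-type iPS replicate 1 or 3.

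Ddit3 went the other way. It had 226, 243 and 211 TPM in double knockout libraries, against 118, 103 and 110 TPM in wild-type iPS libraries, a rise of 1.03 on the log2 scale (standard error 0.087, adjusted p = 5.5e-04), and these were its highest levels in any library. Chac1, which is downstream of both Atf4 and Ddit3 in cultured cells, had 84.4, 92.6 and 102 TPM in double knockout libraries, against 83.6, 90.3 and 84.6 TPM in wild-type iPS libraries, with overlapping groups, unlike its low level in Lin28a-null ES cells; the tables were made separately and the difference between these effects was not tested. Atf4 (499, 500 and 567 against 533, 583 and 582 TPM), Atf5, Psat1, Asns and Sesn2 did not pass the threshold, though each had a negative log2 change, between −0.26 and −0.12.

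The ratio of Ddit3 to Trib3 showed this split in each cell library. It lay between 4.75 and 5.68 in Lin28a-null, 0.765 and 2.00 in Lin28b-null-labelled, 1.17 and 1.51 in doxycycline-treated ilet7, 1.028 and 1.13 in untreated ilet7 and 0.749 and 0.996 in wild-type ES libraries. In iPS cells it lay between 2.54 and 3.42 in double knockout and 0.71 and 1.12 in wild-type libraries. Among cell libraries it was highest in the 6 labelled with loss of Lin28a, reached through a low Trib3 in ES cells and mainly through a high Ddit3 in iPS cells. The ratio restates the changes of these genes given above and is not separate evidence. It did not follow the level of Lin28a mRNA, which was lowest of the ES groups in doxycycline-treated ilet7 libraries (6.26 to 7.33 TPM). The embryo pools, 1 per group, went the other way, with 6.53 in the siLin28 pool and 16.45 in the control pool. Both values were above every cell library, at a low Trib3 of 7.78 and 2.48 TPM. Ddit3 overlaps the synthetase gene Mars on the opposite strand over its last bases, and Atf5 overlaps Nup62 on the opposite strand at its start; the counting is not stated to use strand, so reads in the overlaps cannot be told apart. Mars itself fell in Lin28a-null cells, as given above, while Ddit3 did not. In double knockout cells, where Ddit3 rose, Mars did not pass the threshold (−0.22, adjusted p = 0.090). The part of overlapping reads in these values was not tested.

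**Figure D3:**
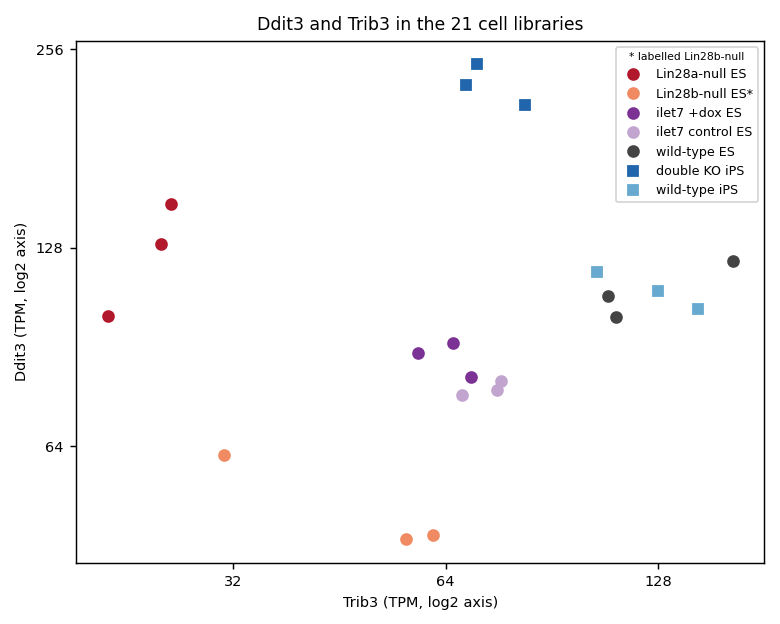
Ddit3 against Trib3 in TPM (both axes on a log2 scale), with 1 point for each of the 21 cell libraries, circles for ES and squares for iPS cells. The 3 Lin28a-null libraries sit at 21.3 to 26.2 TPM of Trib3 and the 3 double knockout libraries at 211 to 243 TPM of Ddit3, each away from its wild-type libraries.

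In the wider pathway, 7 of 13 other Atf4 targets tested fell in double knockout cells and none rose, with Stc2 at 6.52 ± 1.13 TPM in double knockout and 22.4 ± 2.51 TPM in wild-type iPS cells (−1.64, adjusted p = 0.00106) and Gdf15 at −0.94. Of 8 serine, glycine and folate enzymes 4 fell, among them Mthfd1l (−0.52) and Mthfd2 (−0.47), but only 2 of them did without double knockout replicate 1 or 3 or any 1 of the wild-type iPS libraries. Over all genes tested, 7.51% fell and 8.77% rose. Jdp2 fell by 0.95 and Slc1a4 by 0.69 on the log2 scale, and Eif2ak2 rose (0.98, adjusted p = 0.00812). Of the 12 Atf4-linked synthetases 2 fell, Sars (−0.45) and Gars (−0.37), with a median of −0.17, and the second was lost without several single libraries, among them double knockout replicates 1, 2 and 3 and wild-type iPS replicates 2 and 3. Fibroblast markers summed to between 4061 and 5967 TPM in double knockout libraries, against 2701 to 4142 TPM in wild-type iPS libraries, and 4 of 15 rose (2 without double knockout replicate 1 or 2 or wild-type iPS replicate 1 or 2). Trophectoderm markers summed to between 26.6 and 31.1 TPM in double knockout libraries, against 59.2 to 66.0 TPM in wild-type iPS libraries, and all 3 tested fell (Gata3, Krt8 and Krt18, 2 of them without double knockout replicate 1 or 3 or any 1 of the wild-type iPS libraries). Pluripotency markers summed to between 4819 and 5301 TPM in double knockout libraries, against 5686 to 6055 TPM in wild-type iPS libraries, and 1 of 8 fell (0 without double knockout replicate 1 or 2, and 2 without wild-type iPS replicate 1). The part of these markers in the changes was not tested.

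**Figure D4:**
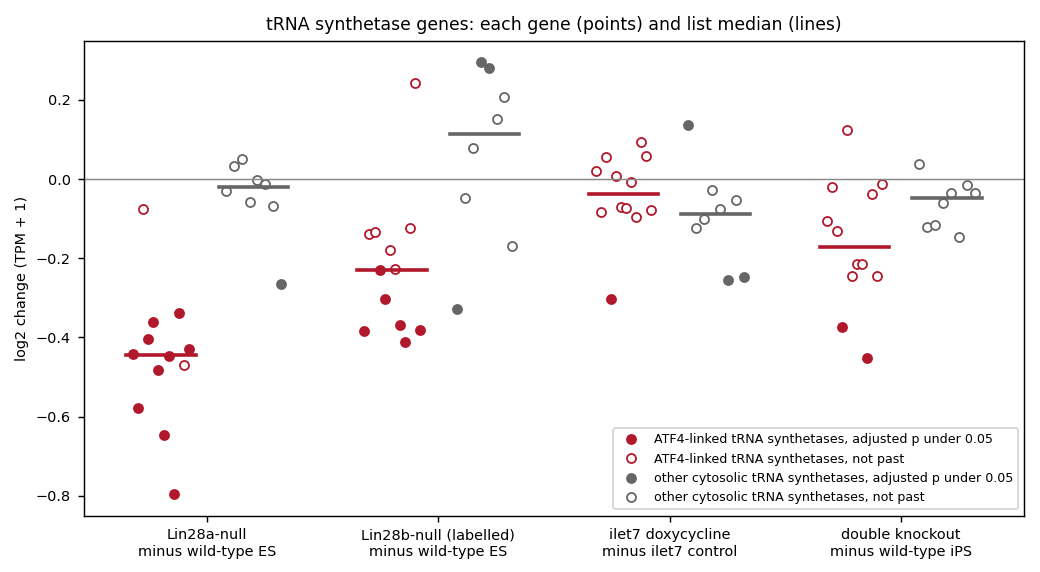
Log2 change of TPM + 1 (vertical axis) of 12 Atf4-linked (red) and 8 other cytosolic (grey) tRNA synthetase genes in 4 comparisons of 3 libraries against 3, with filled points at an adjusted p under 0.05 by limma and lines at list medians. In Lin28a-null cells the medians are −0.44 and −0.02.

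In embryos the direction was the opposite one, in single pools without a replicate check. All 9 genes that averaged 1 TPM or more were higher in the siLin28 than in the control pool, with a median log2 difference of 0.72, against 0.03 over 14875 genes. By that median, at least as many of all genes were higher as lower, and their exact share was not counted. Asns had 101 TPM in the siLin28 pool, against 32.2 TPM in the control pool (1.62), Trib3 7.78 against 2.48 TPM (1.34) and Atf5 3.95 against 0.992 TPM (1.31), so 3 genes were at least 2-fold higher, where 8.28% of genes were. Sesn2 (52.7 against 29.2 TPM, 0.83) and Pck2 (4.24 against 2.18 TPM, 0.72) came next. Phgdh (385 against 291 TPM), Atf4 (172 against 138 TPM), Ddit3 (50.8 against 40.7 TPM) and Psat1 (574 against 487 TPM) differed by 0.24 to 0.40 on the log2 scale. Chac1 was at 0.687 TPM in the siLin28 pool and listed at 0 in the control pool, so no fold is given.

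Serine synthesis stood apart from most of the list in embryos. ES libraries spanned 108 to 352 TPM for Phgdh and 246 to 553 TPM for Psat1. For both genes the control pool lay within that range and the siLin28 pool above it. Asns, Trib3, Atf5, Chac1 and Pck2 were far below the cultured cells (Pck2 at most 4.24 TPM in embryos, at least 28.0 TPM in ES libraries). Atf4 and Sesn2 were also below every cell library. Ddit3, at 50.8 and 40.7 TPM, was near the lowest ES group, the libraries labelled Lin28b-null (46.3 to 62.2 TPM). Embryo and cell libraries were prepared differently and their tables were normalized separately, so these levels are a description. Among other genes, named here after their values were seen, Nupr1 had 198 TPM in the siLin28 pool, against 65.5 TPM in the control pool, Pycr1, an enzyme of proline synthesis, 15.0 against 0.686 TPM, and Stc2 4.90 against 0.456 TPM. Gdf15 went the other way, with 2.48 TPM in the siLin28 pool, against 6.59 TPM in the control pool. Of 12 other Atf4 targets 9 were higher and 3 lower, and of 7 amino acid transporters 3 were higher and 4 lower, with a median of −0.08. Of the 12 Atf4-linked synthetases 10 were higher in the siLin28 pool (median 0.56), while ER response genes had a median of −0.07. The median over all genes was 0.03, and the share of all genes that were higher was not counted. Trophectoderm markers summed to 1170 TPM in the siLin28 and 1522 TPM in the control pool and the pluripotency markers to 4333 and 5225 TPM in that order, so the pools also differ in lineage RNA, whose part in the result was not tested; fibroblast markers were at 14.5 and 10.8 TPM, with 5 of 15 at 0.

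**Figure D5:**
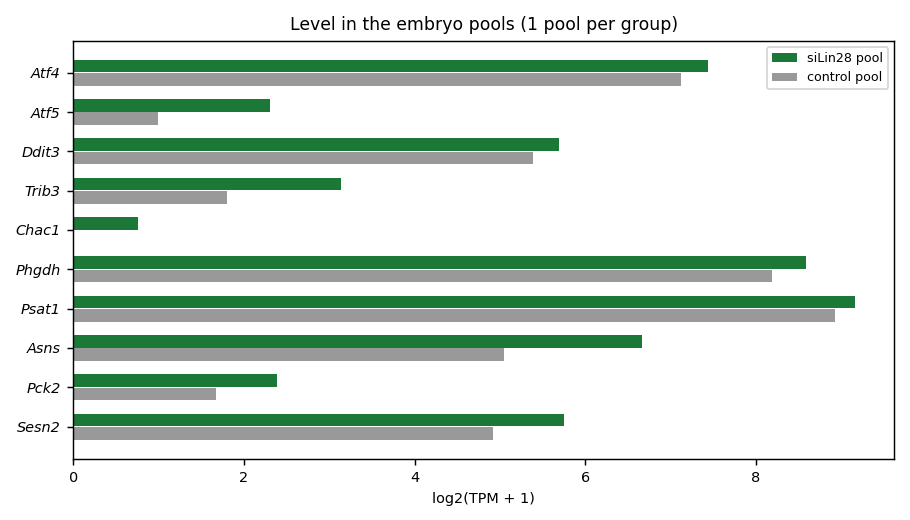
Log2(TPM + 1) (horizontal axis, from 0) of the 10 genes in the siLin28 pool (green) and the control pool (grey), 1 pool each with no error bars. The siLin28 bar is longer for every gene, most for Asns (1.62), Trib3 (1.34) and Atf5 (1.31), and Chac1 has no control bar because it is listed at 0.

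Across the 15 ES libraries the genes varied together to different degrees, described here as correlations of log2(TPM + 1) without a test, since libraries share lines and feeders. Phgdh and Pck2 were closest, with r = 0.981, and Ddit3 and Asns farthest, with r = −0.454. Among 12008 genes that averaged 5 TPM or more, those most like Trib3 were Slc7a5, a leucine transporter and Atf4 target (r = 0.985), Mef2b (0.965), Rps3a1 and Ubap1l (0.959 each) and Cst3 (0.951). Those most like Atf4 mRNA were less close, from Copz2 (0.83) through Rbpms, Cd59b and Amotl2 to Vapa (0.806), and none of the other 9 genes was among them.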

How the data were processed

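RNA-seq was measured in 23 samples, deposited as gene-level TPM in an ES, an iPS and an embryo table. Per the labels and the study's methods, the authors called bases with CASAVA 1.8, trimmed reads with Trimmomatic, aligned them to mm10 with HISAT2, removed duplicates with Picard, kept uniquely mapped reads and computed TPM over GENCODE genes with StringTie. Their DESeq2 output was not used here. TPM keeps no depth, so no counting interval is given. Columns summed to between 999490 and 999890 TPM, no 2 libraries were identical, and 0 columns were left unused.

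Each comparison used its own libraries alone. Genes averaging 1 TPM or more there were transformed to log2(TPM + 1) and fitted by limma 3.58.1 (R 4.3.3) with a variance trend, giving two-sided p-values with Benjamini-Hochberg adjustment across every gene fitted. "Rose" and "fell" mean an adjusted p under 0.05, and 2-fold means a log2 change of at least 1 on that scale, which understates low genes. The procedure was tested on simulated data. Embryo pools were compared without a test. Alternatives were pseudocounts of 0.1 and 0.5, a minimum of 5 TPM, no filter, quantile and median-of-ratios scaling, no trend, all 15 ES libraries together, a replicate block, and leaving out each library. Named genes were the 10 genes and, from 9 pathway lists, up to 2 non-overlapping genes with the largest change per list and main comparison. Members and lists were chosen with earlier results of these data known. Of the file's identifiers, 51464 of 53715 matched GENCODE M21. Promoter windows are RefSeq's. The titles, not the treatment labels, distinguish the embryo pools.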

Additional observations from a re-analysis of the deposited data

Results flagged for a closer look

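The effect of doxycycline in ilet7 cells and the difference between Lin28a-null and wild-type cells differed, by a test of the difference itself, for 8 of the 10 genes, where 16.2% of 16085 genes had a positive difference past the threshold (doxycycline minus untreated ilet7, less Lin28a-null minus wild-type ES, limma over all genes, adjusted p under 0.05). The difference on the log2 scale was 3.12 for Chac1, 2.15 for Trib3, 1.47 for Phgdh, 1.18 for Pck2, 0.80 for Psat1, 0.79 for Atf5, 0.58 for Asns and 0.45 for Sesn2, with adjusted p from 2.4e-07 (Phgdh) to 0.0168 (Asns). It did not pass the threshold for Atf4 (0.24, adjusted p = 0.37, though 0.005 without untreated ilet7 replicate 2) or Ddit3 (−0.03, adjusted p = 0.93). The untreated ilet7 cells already had less Chac1, Atf5, Trib3, Psat1 and Sesn2 than wild-type ES cells, and fibroblast markers rose in 14 of 15 cases in the Lin28a-null comparison, so the 2 effects do not start from the same level; the part of either in the difference was not tested.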

How the results depend on the processing

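The number of the 10 genes past the threshold stayed within 1.5 times of the reported count under every alternative run, leaving out each library included, except for doxycycline against untreated ilet7 cells, where 1 gene, Atf5, in place of 2 was past it with all 15 ES libraries in one fit and 1 with a replicate block (Chac1, adjusted p = 0.0553 and 0.0567). The replicate numbers did not pair the libraries: correlations of same-numbered deviations lay between −0.14 and 0.13, and only in untreated ilet7 against wild-type ES did every library correlate best with its own number. With the block, 8, 6, 8, 7, 3 and 8 genes were past the threshold in Lin28a-null, Lin28b-null-labelled, Lin28a-null against Lin28b-null-labelled, untreated ilet7, double knockout and the doxycycline-less-Lin28a-null test, against 8, 7, 8, 7, 4 and 8 without it. Sesn2 in Lin28b-null-labelled cells was lost with the block (adjusted p = 0.058).

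Only small changes that were not past the threshold turned direction. After median-of-ratios scaling Atf4 was at −0.0425 in Lin28a-null against Lin28b-null-labelled cells and Asns at −0.0625 after doxycycline. With single libraries left out, these ranged from −0.0896 to 0.0638 and from −0.0866 to 0.0965, Atf4 after doxycycline from −0.333 to 0.00596 and in untreated ilet7 against wild-type ES from −0.3004 to 0.0387, and the difference in Ddit3 between the doxycycline and Lin28a-null effects from −0.178 to 0.0991. Of 620 single-gene values under other settings, 606 kept direction and side of the threshold, as did 449 of 480 with a library left out. Pck2 in double knockout cells was also lost without a filter, without the variance trend and with the block. The cause was not tested.

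Counts over all genes moved more. Doxycycline changed 3021 genes, 1900 with all ES libraries in one fit, 1660 with the block and 1612 at fewest with a library left out. Untreated ilet7 against wild-type ES gave 2767, 4274 in one fit and 1247 to 4549 with a library left out. Lin28b-null-labelled cells gave 4434, at fewest 2894, and double knockout cells 2858, at fewest 1801. In embryos 2320 genes were 2-fold apart, 981 at a minimum of 5 TPM. Embryo pools have no replicates, and TPM keeps no depth, so the precision of low values such as Chac1 in embryos is unknown.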
